A study of Homo sapiens with 12 samples.

Results

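The genes described here encode enzymes that use 2-oxoglutarate, molecular oxygen and ferrous iron to hydroxylate or demethylate DNA, RNA, histones and other proteins. They are 44 genes of a fixed list: the 3 TET genes, 17 genes for lysine demethylases and JmjC proteins, the ALKBH family with FTO, the EGLN genes with HIF1AN, the collagen hydroxylases with ASPH, and PHYH, TMLHE, OGFOD1 and OGFOD2. Each was found by its symbol in a table of raw read counts with 55773 gene entries, and all 44 symbols were present. Of these, 42 held enough counts to be tested among 15691 genes. ALKBH6, with 76 counts over all 12 libraries, and OGFOD2, with 66, did not pass the filter on low counts. Poly(A) RNA came from RBE, an established human cholangiocarcinoma (bile duct cancer) line, in 12 libraries. The 4 groups held 3 libraries each. AG120_Nutlin cells had 22 days of 5 µM AG-120 and then 72 hours of 5 µM Nutlin. The vehicle_Nutlin cells had vehicle (DMSO) in place of AG-120 and the same Nutlin. AG120 cells had AG-120 and then DMSO in place of Nutlin, and vehicle cells had DMSO in place of both drugs. AG-120 (ivosidenib) inhibits mutant IDH1 and so blocks the making of 2-hydroxyglutarate (2-HG), and Nutlin inhibits MDM2 and so activates p53. All groups were the same 1 line, and the labels do not say whether the replicates were separate cultures, so p-values measure the spread between libraries, which may be technical in part.

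Mutant IDH1 turns 2-oxoglutarate into 2-HG, a close structural relative that occupies the 2-oxoglutarate site of these enzymes and can inhibit them. TET enzymes oxidise 5-methylcytosine in DNA, JmjC demethylases remove methyl groups from histone lysines, and FTO and ALKBH5 remove methyl groups from RNA. EGLN enzymes hydroxylate the hypoxia-inducible factors (HIF), which marks them for VHL and destruction when oxygen is present, while prolyl and lysyl hydroxylases of the endoplasmic reticulum prepare collagen for folding and crosslinking. Several of these genes are themselves textbook targets of HIF, among them EGLN3, KDM3A, P4HA1 and PLOD2. The counts measure RNA of the enzymes and hold no measure of their activity, of 2-HG or of any methyl mark.

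Among the members that passed the test in both Nutlin comparisons, P4HA2 and PHYH rose most and P4HA1 and PLOD2 fell most. Their promoters are shown for the sequence at their start sites. Each is the RefSeq window from 250 bases before to 50 after the gene's start on GRCh38.p14, written 5′ to 3′ on the gene's own strand, which is the minus strand for all 4. The windows are P4HA2 chr5:132227042-132227341, PHYH chr10:13299714-13300013, P4HA1 chr10:73096817-73097116 and PLOD2 chr3:146161135-146161434. Capitals mark the hypoxia response core, ACGTG or GCGTG, on either strand, where CACGT and CACGC are the same motif read from the other strand.
P4HA2: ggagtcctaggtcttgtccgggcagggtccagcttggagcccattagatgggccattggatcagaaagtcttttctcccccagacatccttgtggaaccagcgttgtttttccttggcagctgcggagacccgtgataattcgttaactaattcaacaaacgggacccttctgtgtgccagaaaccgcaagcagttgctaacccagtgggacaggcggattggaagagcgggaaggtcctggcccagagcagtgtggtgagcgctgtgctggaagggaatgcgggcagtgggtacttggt
PHYH: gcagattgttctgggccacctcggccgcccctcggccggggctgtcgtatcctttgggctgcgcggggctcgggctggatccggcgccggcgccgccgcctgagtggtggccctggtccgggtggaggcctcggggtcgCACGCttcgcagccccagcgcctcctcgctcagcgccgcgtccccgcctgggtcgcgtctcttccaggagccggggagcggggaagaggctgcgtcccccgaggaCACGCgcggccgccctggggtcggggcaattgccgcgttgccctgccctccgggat
P4HA1: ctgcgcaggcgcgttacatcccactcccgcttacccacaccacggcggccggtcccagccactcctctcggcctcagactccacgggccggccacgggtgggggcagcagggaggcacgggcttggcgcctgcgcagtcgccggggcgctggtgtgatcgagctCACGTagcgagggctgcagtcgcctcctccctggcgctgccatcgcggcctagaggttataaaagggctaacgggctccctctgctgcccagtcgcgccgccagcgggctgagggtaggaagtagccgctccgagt
PLOD2: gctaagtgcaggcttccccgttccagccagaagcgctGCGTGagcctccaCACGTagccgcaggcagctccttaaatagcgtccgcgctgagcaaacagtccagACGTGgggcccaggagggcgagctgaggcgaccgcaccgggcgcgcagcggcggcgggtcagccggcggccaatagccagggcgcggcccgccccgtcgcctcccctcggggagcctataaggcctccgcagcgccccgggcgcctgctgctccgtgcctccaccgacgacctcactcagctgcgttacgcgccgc
P4HA2 had no core in its window, PHYH had 2, P4HA1 had 1 and PLOD2 had 3. The core was in the windows of 30 of the 41 members that the promoter table held, or 73.2%, and of 52.4% of 27305 genes. The p53 half-site consensus, searched on both strands, was in the windows of 0 of the 41 members and of 8.06% of the 27305 genes. A match is a run of letters, not a bound site, and the lack of one says only that these letters are not in the window.

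The libraries held 16840161 to 27499433 counts. MDM2, which p53 induces, was 4.36 log2 units higher in AG120_Nutlin than AG120 and 4.29 higher in vehicle_Nutlin than vehicle (edgeR quasi-likelihood test with Benjamini-Hochberg adjustment, adjusted p = 7.973e-10 and 1.029e-09). IDH1, whose mutant product AG-120 inhibits, was at 104, 101 and 100 CPM (each library's counts scaled to the same total with edgeR's TMM factors) in AG120_Nutlin, 95.8, 102 and 132 in vehicle_Nutlin, 185, 200 and 202 in AG120, and 173, 173 and 168 in vehicle. The epithelial and biliary markers KRT7, KRT8, KRT18, KRT19, EPCAM and SOX9 summed to between 4826 and 8105 CPM in every library. The 4 leukocyte markers summed to at most 0.685 CPM and the endothelial markers to at most 1.06 CPM. Of 5 fibroblast markers, DCN and LUM were at 0 in all 12 libraries, while COL1A1 and PDGFRB were present. Replicate 3 of vehicle_Nutlin stood furthest from its group, and it bears on several members. The members together took 0.328% to 0.332% of all counts in AG120_Nutlin, 0.324%, 0.321% and 0.285% in vehicle_Nutlin, 0.304% to 0.307% in AG120 and 0.309% to 0.311% in vehicle.

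Levels spread over more than 2 orders of magnitude when set per kilobase of exon, the scale on which genes can be compared. In vehicle cells ASPH, an aspartyl and asparaginyl hydroxylase of the endoplasmic reticulum, was highest at 54.2 CPM per kilobase. PLOD3, a lysyl hydroxylase that also glycosylates collagen, stood at 53.4, the RNA demethylase ALKBH5 at 31.5 and the histone demethylase KDM3B at 29.1. At the other end TET1 stood at 0.314 CPM per kilobase, P4HA3 at 0.327, EGLN2 at 0.492 and TET2 at 0.737, so 2 of the 3 TET genes were among the 4 lowest of the tested members. The P4HA3 and EGLN2 entries overlap other entries, and whether shared reads were lost from their levels was not tested. With Nutlin, PHYH stood at 43.2 and P4HA2 at 40.8 CPM per kilobase in AG120_Nutlin, behind PLOD3 alone at 57.5, against 10.7 for PHYH and 10.0 for P4HA2 in vehicle.

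Nutlin changed about as many of these genes as it did of all genes. In AG-120 cells 14 of 42 members rose and 7 fell in AG120_Nutlin against AG120, or 50% of those tested, where 55.7% of all tested genes passed (27.0% higher and 28.8% lower). In vehicle cells 14 rose and 9 fell in vehicle_Nutlin against vehicle, or 54.8%, where 53.9% of all tested genes passed (26.8% higher and 27.1% lower). The members' median log2 fold change was 0.12 in AG-120 cells, against 0.00 for all genes, and 0.10 in vehicle cells, against -0.02 for all genes. Of the members, 10 rose in both comparisons, 5 fell in both, none went opposite ways, and 13 passed in neither. How many of all tested genes passed in both, or did so under every alternative, was not counted. With library totals in place of TMM scaling, 11 rose and 11 fell in vehicle cells, where 3623 of all 15691 tested genes rose and 4772 fell. The 3 libraries that stood apart were vehicle_Nutlin replicates 2 and 3 and AG120 replicate 1. A fit without them, among the alternatives run, keeps only 1 vehicle_Nutlin library, so its calls are not given on their own. The libraries did not overlap in 28 of 42 members in AG-120 cells, with 18 higher and 10 lower in AG120_Nutlin, or 66.7% against 70.2% of all tested genes. In vehicle cells 25 did not overlap, with 13 higher and 12 lower in vehicle_Nutlin, or 59.5% against 59.3%. In bulk RNA, fewer cells with a transcript and less of it per cell cannot be told apart. P4HA2, PHYH, KDM4B and KDM6B rose at least 2-fold in each comparison. P4HA1, P4HA3 and PLOD2 fell at least 2-fold in AG120_Nutlin, and PLOD2 and EGLN2 did so in vehicle_Nutlin. The comparisons have no library in common, though they share 1 estimate of spread, and 9 members passed in both under every alternative run: P4HA2, PHYH, KDM6A, KDM5B, KDM4C, PHF8, HIF1AN, P4HA1 and PLOD2.

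**Figure D1:**
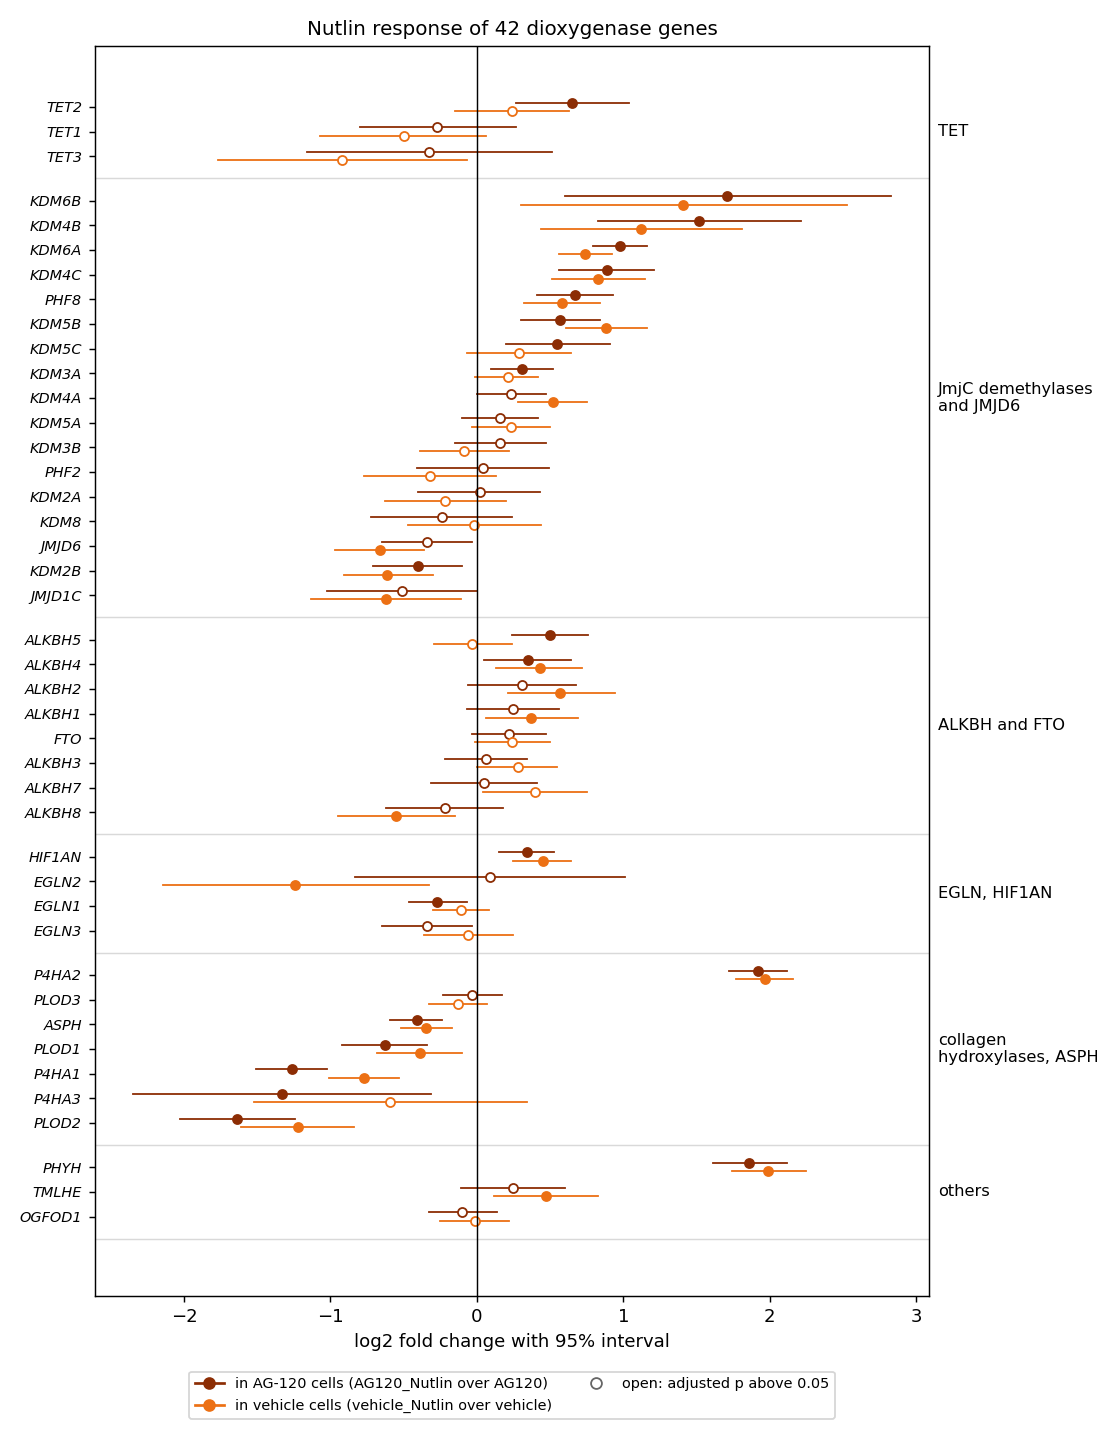
Log2 fold change of the 42 tested members under Nutlin (horizontal axis), grouped by enzyme family down the page, in AG-120 cells (AG120_Nutlin over AG120, dark) and in vehicle cells (vehicle_Nutlin over vehicle, light). Points are the fitted changes, bars their 95% intervals and filled points an adjusted p of at most 0.05; P4HA2 and PHYH stand near 2 in both, and PLOD2 and P4HA1 lie lowest among the members with narrow bars.

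The collagen hydroxylases moved in opposite directions. P4HA2 rose, P4HA1, PLOD1, PLOD2 and ASPH fell in both comparisons, P4HA3 passed, as lower, in AG-120 cells alone, and PLOD3 passed in neither. P4HA1 and P4HA2 each encode a catalytic subunit of collagen prolyl 4-hydroxylase, and both bind the same partner, P4HB. P4HA2 (hg19 chr5:131527531-131631008) was at 150, 152 and 152 CPM in AG120_Nutlin, 143, 137 and 157 in vehicle_Nutlin, 42, 41.1 and 37 in AG120, and 37.7, 35.1 and 38.9 in vehicle. Every Nutlin library lay above every library without Nutlin, and the log2 fold change was 1.92 (SE 0.09, edgeR adjusted p = 1.807e-09) in AG-120 cells and 1.97 (SE 0.09, adjusted p = 1.747e-09) in vehicle cells. P4HA1 (hg19 chr10:74766975-74856732) went the other way, with 22.2, 20 and 21.9 CPM in AG120_Nutlin, 25.1, 23.6 and 30.7 in vehicle_Nutlin, 49.5, 55.2 and 49.1 in AG120, and 44.4, 47.9 and 43.4 in vehicle. All Nutlin libraries were below all others, with log2 fold changes of -1.26 (SE 0.11, edgeR adjusted p = 7.3e-07) in AG-120 cells and -0.77 (SE 0.11, adjusted p = 6.782e-05) in vehicle cells. P4HA1 stood at 15.5 CPM per kilobase in vehicle against 10.0 for P4HA2, and in both Nutlin groups P4HA2 was the higher of the pair.

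PLOD1, PLOD2 and PLOD3 encode the lysyl hydroxylases, and PLOD2 acts on the ends of collagen chains, where crosslinks form. PLOD2 (hg19 chr3:145787227-145881440) was at 5.79, 5.08 and 5.82 CPM in AG120_Nutlin, 6.78, 6.05 and 10.5 in vehicle_Nutlin, 15.9, 18.7 and 17.2 in AG120, and 17.6, 19.5 and 17.6 in vehicle. The groups did not overlap with or without AG-120. Its log2 fold change was -1.64 (SE 0.18, edgeR adjusted p = 6.259e-06) in AG-120 cells and -1.22 (SE 0.18, adjusted p = 7.165e-05) in vehicle cells. PLOD1 was at 43, 45 and 49.2 CPM in AG120_Nutlin, 42.5, 39.1 and 54.4 in vehicle_Nutlin, 81, 69.6 and 61.7 in AG120, and 63.1, 60.4 and 55.1 in vehicle. It fell in AG-120 cells (-0.63, SE 0.14, edgeR adjusted p = 0.001467), whereas in vehicle cells the highest Nutlin library lay just under the lowest vehicle library and the change was -0.39 (SE 0.13, adjusted p = 0.02627). The vehicle-cell call was lost without vehicle replicate 1 or 2 or vehicle_Nutlin replicate 1 or 2 (adjusted p up to 0.09928, log2 fold change -0.29 to -0.37). PLOD3 was at 127 to 183 CPM in every library and changed by -0.03 (95% interval -0.23 to 0.17) in AG-120 cells and -0.13 (-0.33 to 0.07) in vehicle cells.

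ASPH (hg19 chr8:62413116-62627155), the most abundant member, was at 628, 609 and 617 CPM in AG120_Nutlin, 700, 699 and 741 in vehicle_Nutlin, 805, 851 and 817 in AG120, and 893, 934 and 896 in vehicle. The 4 groups did not overlap one another, and with Nutlin the log2 fold change was -0.41 (SE 0.08, edgeR adjusted p = 0.000805) in AG-120 cells and -0.35 (SE 0.08, adjusted p = 0.003043) in vehicle cells. An offset for transcript length reduced the vehicle-cell change to -0.12 (adjusted p = 0.5873). P4HA3, another prolyl 4-hydroxylase subunit with 146 counts in all, was at 0.301, 0.247 and 0.353 CPM in AG120_Nutlin, 0.582, 0.36 and 0.556 in vehicle_Nutlin, 0.514, 0.883 and 0.896 in AG120, and 0.802, 0.396 and 1.03 in vehicle. It passed in AG-120 cells (-1.33, SE 0.47, edgeR adjusted p = 0.02837), and the call was lost without AG120 replicate 2 or 3 or any 1 AG120_Nutlin replicate (adjusted p up to 0.1052). P4HA3 lies across PPME1, which had 26447 counts, and the sources used here do not say how shared reads were counted. Among 8 partners of these enzymes and collagen folding genes, 1 rose and 4 fell in AG-120 cells, and 1 rose and 3 fell in vehicle cells. The share called was 62.5% in AG-120 cells, against 55.7% of all tested genes (28.8% lower), and 50% in vehicle cells, against 53.9% (27.1% lower). P4HB, the shared beta subunit, fell by 0.89 on the log2 scale in AG-120 cells and by 0.61 in vehicle cells (edgeR adjusted p = 0.0001633 and 0.002958). COLGALT1, which adds galactose to hydroxylysine, fell by 1.51 in AG-120 cells and by 1.32 in vehicle cells (adjusted p = 8.346e-08 and 3.397e-07). Its paralog COLGALT2 fell by 1.77 in AG-120 cells and by 0.85 in vehicle cells (adjusted p = 1.077e-06 and 0.0004911). SERPINH1, the collagen chaperone, rose by 0.39 in AG-120 cells and 0.28 in vehicle cells (adjusted p = 0.00728 and 0.03913). The 5 fibroblast markers had a lower sum with Nutlin, at 2.41 to 3.16 CPM in AG120_Nutlin, 2.82 to 5.3 in vehicle_Nutlin, 38.6 to 43.4 in AG120 and 36.0 to 39.5 in vehicle, with DCN and LUM at 0 throughout. That sum was nearly all COL1A1 and PDGFRB, and COL1A2 did not pass the filter on low counts. Their part in the result was not tested.

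Of the 17 JmjC demethylases, 8 rose and 1 fell in AG-120 cells, and 7 rose and 3 fell in vehicle cells. The share called was 52.9% in AG-120 cells, against 55.7% of all tested genes (27.0% higher and 28.8% lower), and 58.8% in vehicle cells, against 53.9% (26.8% higher and 27.1% lower). The strongest by its test was KDM6A, an H3K27 demethylase on the X chromosome (hg19 chrX:44732757-44971847). It was at 85.8, 82.1 and 82.1 CPM in AG120_Nutlin, 74.8, 68.4 and 72.4 in vehicle_Nutlin, 41.7, 41.2 and 44.3 in AG120, and 43.8, 40.4 and 44.8 in vehicle. The Nutlin and other libraries were wide apart, and the log2 fold change was 0.98 (SE 0.08, edgeR adjusted p = 5.114e-07) in AG-120 cells and 0.74 (SE 0.08, adjusted p = 7.576e-06) in vehicle cells. Its paralog KDM6B (hg19 chr17:7743222-7758114), also an H3K27 demethylase, was at 86.2, 85.3 and 81.4 CPM in AG120_Nutlin, 77, 91.3 and 9.83 in vehicle_Nutlin, 25, 24.3 and 27.9 in AG120, and 26.3, 20.1 and 20.3 in vehicle. Replicate 3 of vehicle_Nutlin lay below every library without Nutlin while the other 2 lay above all of them. The log2 fold change was 1.71 (SE 0.52, edgeR adjusted p = 0.01261) in AG-120 cells and 1.41 (SE 0.51, adjusted p = 0.03372) in vehicle cells. Without vehicle_Nutlin replicate 3 the vehicle-cell change was 1.91 (adjusted p = 1.263e-09). The call was lost without any 1 vehicle replicate or without vehicle_Nutlin replicate 1 or 2 (adjusted p 0.05782 to 0.1472, log2 fold change 0.96 to 1.55).

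The KDM4 genes encode demethylases of H3K9 and H3K36. KDM4B (hg19 chr19:4969125-5153606) was at 193, 204 and 186 CPM in AG120_Nutlin, 164, 170 and 49.8 in vehicle_Nutlin, 71.8, 63.8 and 67.4 in AG120, and 60.7, 59.1 and 56.3 in vehicle. Replicate 3 of vehicle_Nutlin lay below every library without Nutlin, and all other Nutlin libraries lay above them. KDM4B rose by 1.52 (SE 0.32, edgeR adjusted p = 0.001225) in AG-120 cells and 1.12 (SE 0.32, adjusted p = 0.009138) in vehicle cells, or 1.5 without that replicate (adjusted p = 1.021e-10). KDM4C was at 26.6, 24.4 and 22.9 CPM in AG120_Nutlin, 22.9, 30.4 and 24.4 in vehicle_Nutlin, 13.6, 15.5 and 10.9 in AG120, and 15.3, 15.2 and 13.2 in vehicle. Its groups did not overlap, and the log2 fold change was 0.89 (SE 0.15, edgeR adjusted p = 0.0002171) in AG-120 cells and 0.83 (SE 0.15, adjusted p = 0.0003876) in vehicle cells. KDM4A was at 60.4, 62.5 and 64.1 CPM in AG120_Nutlin, 64.6, 76.9 and 59.7 in vehicle_Nutlin, 58.5, 51.9 and 48.5 in AG120, and 44.8, 45.8 and 50.1 in vehicle. It rose in vehicle cells (0.52, SE 0.11, edgeR adjusted p = 0.001559), and in AG-120 cells the change was 0.23 (SE 0.11, adjusted p = 0.08817), the test of the difference between those changes giving an adjusted p of 0.5328.

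KDM5B and KDM5C, demethylases of H3K4, and PHF8, which acts on H3K9 and H4K20, stood higher with Nutlin. KDM5B (hg19 chr1:202696526-202778598) was at 189, 193 and 194 CPM in AG120_Nutlin, 192, 194 and 187 in vehicle_Nutlin, 161, 117 and 109 in AG120, and 109, 103 and 98.2 in vehicle. Both Nutlin groups reached the same level within their spread, and AG120 replicate 1 was the highest without Nutlin. The log2 fold change was 0.57 (SE 0.13, edgeR adjusted p = 0.001686) in AG-120 cells and 0.88 (SE 0.13, adjusted p = 6.111e-05) in vehicle cells. PHF8 was at 29.9, 29 and 32.2 CPM in AG120_Nutlin, 26.9, 27.4 and 21.7 in vehicle_Nutlin, 21.6, 18 and 17.8 in AG120, and 16.5, 16.2 and 18.1 in vehicle. It rose by 0.67 (SE 0.12, edgeR adjusted p = 0.0003808) in AG-120 cells and 0.58 (SE 0.12, adjusted p = 0.00126) in vehicle cells, with no overlap in either. KDM5C rose in AG-120 cells by 0.55 (adjusted p = 0.01185), and its change in vehicle cells was 0.29 (adjusted p = 0.1584), or 0.49 without vehicle_Nutlin replicate 3 (adjusted p = 0.0003392). KDM3A, an H3K9 demethylase, rose by 0.31 in AG-120 cells (adjusted p = 0.01629), a call lost without AG120_Nutlin replicate 1 or 3 (0.30 and 0.28, adjusted p = 0.05081 and 0.06451), and its change in vehicle cells was 0.21 (adjusted p = 0.0919).

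KDM2B, an H3K36 demethylase that recruits a Polycomb complex to CpG islands, fell. It was at 39.5, 41.5 and 43 CPM in AG120_Nutlin, 37.9, 41.6 and 26.4 in vehicle_Nutlin, 60.5, 53.6 and 50 in AG120, and 53.7, 52.8 and 54.4 in vehicle. No Nutlin library reached the level of any library without Nutlin, and the log2 fold change was -0.40 (SE 0.14, edgeR adjusted p = 0.02704) in AG-120 cells and -0.61 (SE 0.14, adjusted p = 0.002885) in vehicle cells. The AG-120-cell call was lost without AG120 replicate 1 or 2 or AG120_Nutlin replicate 1 or 2 (adjusted p up to 0.09545, log2 fold change -0.33 to -0.41). JMJD6, a lysyl hydroxylase of splicing factors, was at 21.8, 22.4 and 19.9 CPM in AG120_Nutlin, 23.8, 17.9 and 20.1 in vehicle_Nutlin, 22.4, 28.8 and 30.1 in AG120, and 36.7, 29.6 and 31.5 in vehicle. It fell in vehicle cells (-0.66, SE 0.14, edgeR adjusted p = 0.00154), and the change in AG-120 cells, where the groups overlapped at 1 library, was -0.34 (SE 0.14, adjusted p = 0.05852). JMJD1C was at 63.1, 67 and 68.3 CPM in AG120_Nutlin, 62.5, 71.8 and 30 in vehicle_Nutlin, 111, 89 and 81.6 in AG120, and 84, 86.6 and 82.1 in vehicle. Its fall passed in vehicle cells (-0.62, SE 0.24, adjusted p = 0.03963) and was -0.51 in AG-120 cells (SE 0.23, adjusted p = 0.08361). The vehicle-cell call was lost without any 1 of the vehicle or AG120_Nutlin replicates or without AG120 replicate 2 (adjusted p up to 0.09313), and without vehicle_Nutlin replicate 3 the change was -0.33 (adjusted p = 0.01887). KDM2A, KDM3B, KDM5A, KDM8 and PHF2 passed in neither comparison, with changes of -0.24 to 0.16 in AG-120 cells and -0.32 to 0.23 in vehicle cells.

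**Figure D2:**
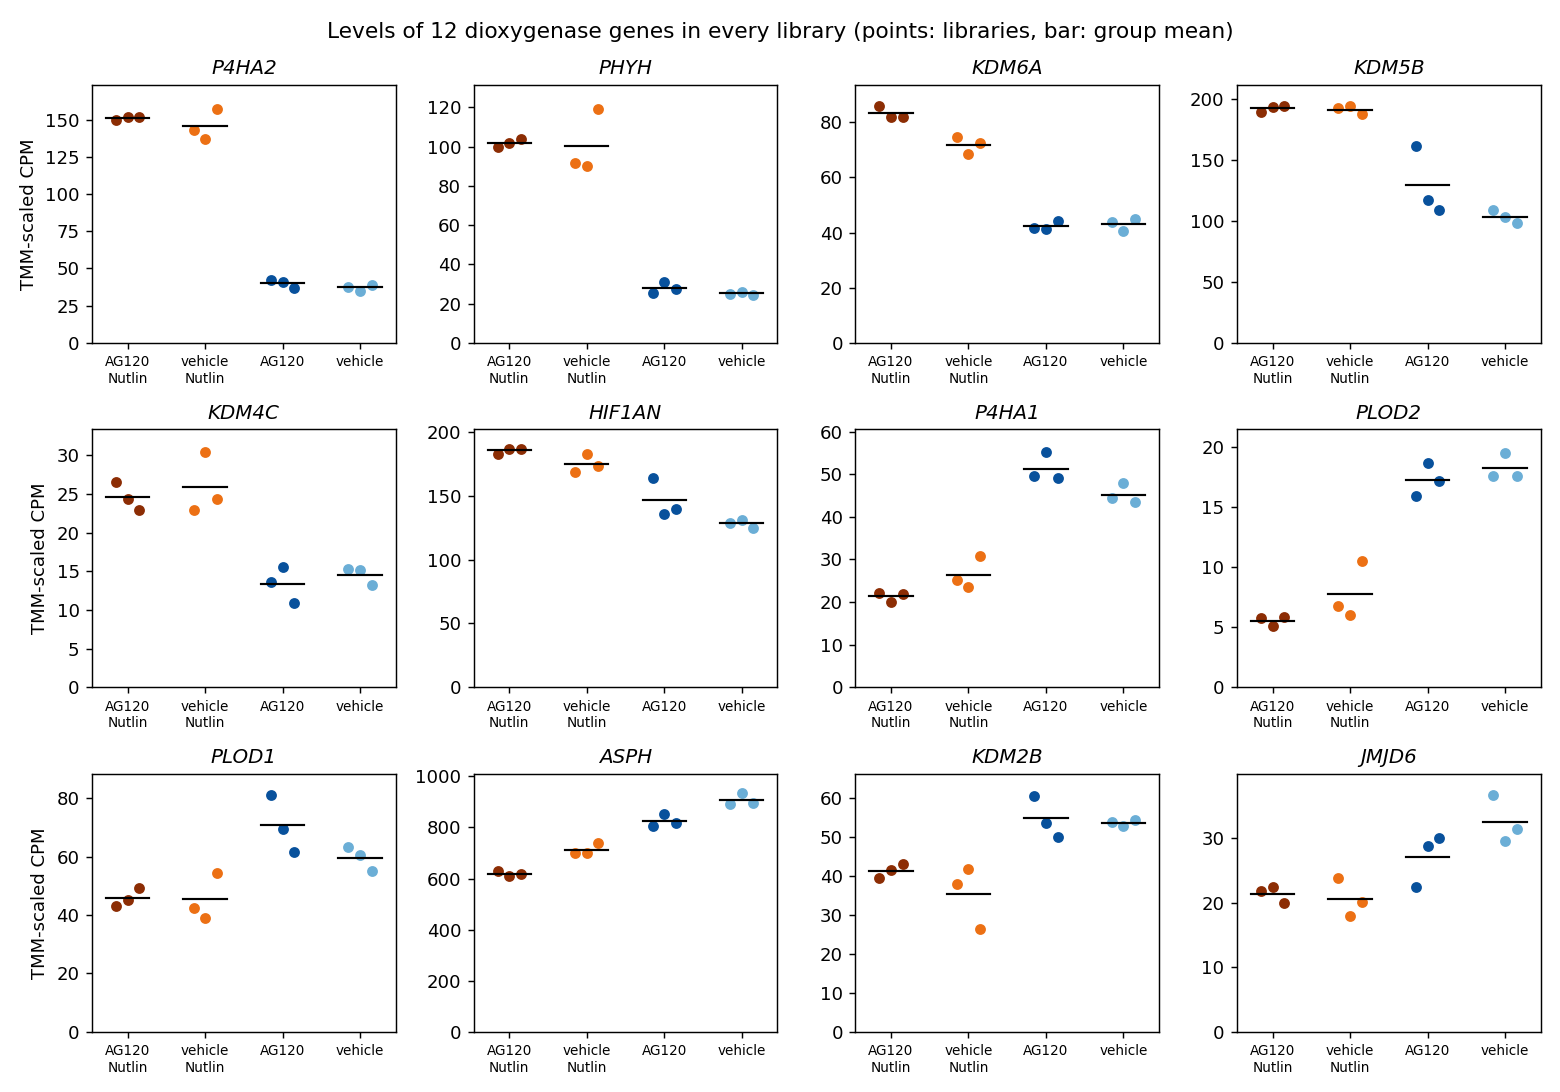
TMM-scaled CPM (vertical axes, from 0) of 12 members in every library, with the groups AG120_Nutlin, vehicle_Nutlin, AG120 and vehicle along each horizontal axis; points are libraries and bars are group means. The Nutlin libraries of P4HA2, PHYH and KDM6A lie above all others and those of P4HA1, PLOD2, ASPH and KDM2B below all others.

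Of the 3 TET genes, 1 was called in AG-120 cells (33.3%, against 55.7% of all tested genes) and 0 in vehicle cells (against 53.9%). TET2 was at 17, 19.3 and 21.7 CPM in AG120_Nutlin, 15.8, 15.5 and 9.87 in vehicle_Nutlin, 14.3, 12 and 10.7 in AG120, and 11.8, 11.4 and 11.6 in vehicle. It rose in AG-120 cells (0.65, SE 0.18, edgeR adjusted p = 0.007075), and its change in vehicle cells was 0.24 (SE 0.18, adjusted p = 0.277), or 0.43 without vehicle_Nutlin replicate 3, the lowest library of all (adjusted p = 0.0167). TET3 was at 22.1, 23.4 and 21.7 CPM in AG120_Nutlin, 22, 19.7 and 4.15 in vehicle_Nutlin, 31.7, 25.9 and 26.8 in AG120, and 27.9, 26.6 and 31.4 in vehicle. Its Nutlin libraries were all below the others, yet the changes did not pass, at -0.33 (SE 0.39, edgeR adjusted p = 0.4968) in AG-120 cells and -0.92 (SE 0.39, adjusted p = 0.06396) in vehicle cells. Without vehicle_Nutlin replicate 3 TET3 passed in both, at -0.34 in AG-120 cells (adjusted p = 0.009673) and -0.47 in vehicle cells (adjusted p = 0.003198). TET1 stayed between 1.24 and 4.07 CPM in every library, with changes of -0.27 (95% interval -0.80 to 0.27) in AG-120 cells and -0.50 (-1.07 to 0.06) in vehicle cells.

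In the ALKBH family and FTO, 2 of 8 tested genes rose and none fell in AG-120 cells, and 3 rose and 1 fell in vehicle cells. That is 25% called in AG-120 cells, against 55.7% of all tested genes, and 50% in vehicle cells, against 53.9%. ALKBH5, which removes m6A from RNA, was at 114, 113 and 110 CPM in AG120_Nutlin, 105, 75.5 and 92.3 in vehicle_Nutlin, 69.3, 84.3 and 84.6 in AG120, and 96.6, 95.2 and 85.8 in vehicle. The AG120_Nutlin libraries were the 3 highest and the AG120 libraries were all below the vehicle libraries. It rose in AG-120 cells (0.50, SE 0.12, edgeR adjusted p = 0.003383) and in vehicle cells the change was -0.03 (SE 0.12, adjusted p = 0.8777). FTO, the other m6A demethylase, passed in neither, at 0.22 (95% interval -0.03 to 0.47) in AG-120 cells and 0.24 (-0.01 to 0.50) in vehicle cells. ALKBH2, which repairs alkylated bases in DNA, rose in vehicle cells by 0.57 (SE 0.17, edgeR adjusted p = 0.01173), with 16.5, 14.3 and 22.7 CPM in vehicle_Nutlin and 11.9, 12 and 12.2 in vehicle. Its change in AG-120 cells was 0.31 (adjusted p = 0.1478). ALKBH4 rose by 0.35 in AG-120 cells (adjusted p = 0.04609) and by 0.43 in vehicle cells (adjusted p = 0.01744), and ALKBH1 rose in vehicle cells by 0.37 (adjusted p = 0.0457). ALKBH1, which passed in 7 of 23 alternatives in vehicle cells, and ALKBH4, in 9 of 23 in AG-120 cells, were the least stable calls among the members, and ALKBH4 passed in 15 of 23 in vehicle cells. Leaving out any 1 library of AG120_Nutlin, of vehicle, or AG120 replicate 1 or 2 ended the ALKBH4 call in AG-120 cells, and vehicle replicate 2 or 3 or vehicle_Nutlin replicate 2 ended it in vehicle cells. The ALKBH1 call ended without any 1 library of AG120_Nutlin or vehicle or without vehicle_Nutlin replicate 1 or 3, and was 0.23 without the last of these. ALKBH8, a tRNA methyltransferase with a dioxygenase domain, was at 8.02, 5.52 and 6.88 CPM in AG120_Nutlin, 6.35, 5.03 and 5.22 in vehicle_Nutlin, 9.13, 6.43 and 8.12 in AG120, and 7.47, 9.11 and 7.74 in vehicle. It fell in vehicle cells (-0.55, SE 0.18, edgeR adjusted p = 0.02364), a call lost without vehicle replicate 2 or vehicle_Nutlin replicate 2 (-0.45 and -0.48, adjusted p = 0.0952 and 0.0658). ALKBH3 and ALKBH7 changed by 0.06 and 0.05 in AG-120 cells and by 0.28 and 0.40 in vehicle cells, and neither passed (adjusted p = 0.08557 and 0.05805 in vehicle cells). Among 9 m6A writers and readers, 4 rose and 2 fell in AG-120 cells (66.7% called, against 55.7% of all tested genes) and 4 rose and 1 fell in vehicle cells (55.6%, against 53.9%). The readers YTHDF1, YTHDF2 and YTHDF3 rose by 0.39 to 0.53 in AG-120 cells and by 0.26 to 0.54 in vehicle cells, METTL14 rose, and METTL3, the catalytic subunit, fell by 0.43 in AG-120 cells and by 0.53 in vehicle cells (adjusted p = 0.03132 and 0.01014).

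Among the 4 HIF hydroxylases, 1 rose and 1 fell in each Nutlin comparison. That is 50% called in each, against 55.7% of all tested genes in AG-120 cells and 53.9% in vehicle cells. HIF1AN, which hydroxylates an asparagine of HIF and curbs its activity, was at 183, 187 and 187 CPM in AG120_Nutlin, 169, 183 and 173 in vehicle_Nutlin, 164, 136 and 140 in AG120, and 129, 131 and 125 in vehicle. The Nutlin groups lay wholly above, and HIF1AN rose by 0.34 (SE 0.09, edgeR adjusted p = 0.005501) in AG-120 cells and 0.45 (SE 0.09, adjusted p = 0.0008921) in vehicle cells. EGLN1, the main HIF prolyl hydroxylase, was at 162, 163 and 170 CPM in AG120_Nutlin, 159, 172 and 167 in vehicle_Nutlin, 218, 191 and 185 in AG120, and 183, 187 and 167 in vehicle. It fell in AG-120 cells (-0.27, SE 0.09, edgeR adjusted p = 0.02176), which was lost without AG120 replicate 1, the highest library, or AG120_Nutlin replicate 1 or 2 (-0.19 to -0.25, adjusted p up to 0.0796), and with an offset for transcript length (-0.22, adjusted p = 0.07767). In vehicle cells the change was -0.11 (95% interval -0.30 to 0.08). EGLN3 was at 15.1, 16.5 and 15.1 CPM in AG120_Nutlin, 19.2, 18.1 and 25.1 in vehicle_Nutlin, 22.3, 20.2 and 16.6 in AG120, and 22.2, 22.1 and 20.8 in vehicle, and passed in neither Nutlin comparison (-0.34, adjusted p = 0.05861 in AG-120 cells, and -0.06, adjusted p = 0.7515 in vehicle cells). EGLN2, with 241 counts in all, was at 0.723, 1.33 and 0.529 CPM in AG120_Nutlin, 0.582, 0.839 and 0.513 in vehicle_Nutlin, 0.6, 1.08 and 0.791 in AG120, and 1.3, 1.13 and 2.03 in vehicle. It fell in vehicle cells (-1.24, SE 0.42, edgeR adjusted p = 0.02385), a call lost without vehicle replicate 3 or vehicle_Nutlin replicate 1 or 3 (-0.92 to -1.17, adjusted p up to 0.1285). The EGLN2 entry overlaps 2 entries for the RAB4B-EGLN2 readthrough region, both at 0 counts, and how reads shared by overlapping entries were counted is not given in the sources used here.

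Of 20 other HIF pathway and target genes, 8 rose and 9 fell in AG-120 cells and 7 rose and 7 fell in vehicle cells, so the list did not move one way. The share called was 85% in AG-120 cells, against 55.7% of all tested genes, and 70% in vehicle cells, against 53.9%. EPAS1, which encodes HIF-2 alpha, rose by 2.05 in AG-120 cells and 1.95 in vehicle cells (edgeR adjusted p = 6.482e-07 and 1.126e-06), while HIF1A fell by 0.38 in AG-120 cells and by 0.28 in vehicle cells (adjusted p = 0.002136 and 0.0136). NDRG1 and MXI1 rose by 2.49 and 0.96 in AG-120 cells and by 1.94 and 1.16 in vehicle cells. The list's largest change was that of CA9, a carbonic anhydrase, which fell by 4.71 in AG-120 cells and by 3.97 in vehicle cells (adjusted p = 0.0002719 and 0.0004492). It was named after its values were seen and rests on few reads, with 0, 4 and 0 counts in AG120_Nutlin, 7, 0 and 1 in vehicle_Nutlin, 42, 34 and 53 in AG120, and 41, 41 and 67 in vehicle, so the fitted size depends on the prior count. LDHA, which makes lactate from pyruvate, and PDK1, which keeps pyruvate out of the mitochondrial cycle, fell by 2.31 and 2.32 in AG-120 cells and by 1.83 and 1.57 in vehicle cells. Of the members named above as examples of textbook HIF targets, P4HA1 and PLOD2 fell, KDM3A rose in AG-120 cells, and EGLN3 passed in neither comparison. The other members, risers such as P4HA2 and KDM4B included, were not sorted by whether HIF induces them. The examples therefore give no direction for HIF targets among the members.

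PHYH, the peroxisomal phytanoyl-CoA hydroxylase, had the largest change of all members in vehicle cells. PHYH (hg19 chr10:13319796-13344412) was at 99.8, 102 and 104 CPM in AG120_Nutlin, 91.6, 89.9 and 119 in vehicle_Nutlin, 25.6, 30.8 and 27.6 in AG120, and 25, 25.8 and 24.6 in vehicle. The Nutlin libraries stood far above the rest, with log2 fold changes of 1.86 (SE 0.12, edgeR adjusted p = 2.689e-08) in AG-120 cells and 1.99 (SE 0.12, adjusted p = 1.752e-08) in vehicle cells. TMLHE, the first enzyme of carnitine synthesis, rose in vehicle cells by 0.47 (SE 0.16, adjusted p = 0.02746), which was lost without vehicle replicate 1 or 3 or vehicle_Nutlin replicate 3 (0.44, 0.42 and 0.27, adjusted p up to 0.1287). Its change in AG-120 cells was 0.25 (adjusted p = 0.2179). OGFOD1, a prolyl hydroxylase of a ribosomal protein, passed in neither, at -0.10 (95% interval -0.33 to 0.14) in AG-120 cells and -0.01 (-0.25 to 0.22) in vehicle cells. ALKBH6 was at 0.482, 0.296 and 0.294 CPM in AG120_Nutlin, 0.212, 0.12 and 0.0855 in vehicle_Nutlin, 0.129, 0.147 and 0.264 in AG120, and 0.401, 0.283 and 0.86 in vehicle, too few counts for a test. The ALKBH6 entry shares 5116 bases with AC002116.8, a processed transcript entry at 0 counts. OGFOD2 lay between 0 and 0.493 CPM, and its entry overlaps that of ABCB9, which held 5596 counts.

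The question the design puts to these enzymes is whether their RNA differs when the mutant IDH1 inhibitor has been present. No member passed in AG120 against vehicle, where 0.0510% of all tested genes did (edgeR). DESeq2 also called 0 members, where it called 0.779% of the genes it tested. An unadjusted edgeR p under 0.05 was found for 3 of 42 members and for 1254 of all 15691 tested genes. In 9 members the groups did not overlap, 6 with AG120 above and 3 below, or 21.4%, against 21.8% of all tested genes (11.4% higher and 10.3% lower). The smallest adjusted p was 0.5376, for KDM5B, at 0.32 (95% interval 0.05 to 0.59). AG120 replicate 1, at 161 CPM against 117 and 109 in the other 2, was the highest KDM5B library of that group. The intervals bound how large a change could have been missed: for 40 of 42 members the whole 95% interval lay within a 2-fold change either way, and for 33 within 1.5-fold. KDM6B (0.21, interval -0.90 to 1.32) and EGLN2 (-0.87, interval -1.75 to 0.00) were the exceptions to the wider bound. The intervals were -0.32 to 0.04 for ASPH (-0.14), -0.05 to 0.34 for EGLN1 (0.15), -0.06 to 0.33 for PLOD3 (0.14) and -0.09 to 0.29 for P4HA2 (0.10). They were wider for KDM3B (0.03, -0.27 to 0.34) and KDM2A (0.13, -0.29 to 0.54), which are also among the abundant members. Each gene's interval uses 1 estimate of spread over all 4 groups, so libraries outside this comparison enter it. In vehicle_Nutlin, KDM3B was at 204, 220 and 136 CPM, KDM2A at 115, 121 and 61.5, and KDM6B at 77, 91.3 and 9.83. The part of replicate 3 of vehicle_Nutlin in the width of these intervals was not tested.

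Under Nutlin, too, no member passed in AG120_Nutlin against vehicle_Nutlin, where 2.36% of all tested genes did (0.433% higher and 1.93% lower). An unadjusted edgeR p under 0.05 was found for 12 of 42 members and for 3067 of all 15691 tested genes. Of the members DESeq2 called ASPH alone, lower by 0.21 on the log2 scale (adjusted p = 0.04445), where it called 6.66% of the genes it tested. The smallest edgeR adjusted p was 0.1372, for EGLN3, at -0.42 (95% interval -0.73 to -0.11), whose 3 AG120_Nutlin libraries all lay below the 3 vehicle_Nutlin libraries. In 16 of 42 members the groups did not overlap, 9 with AG120_Nutlin above and 7 below, or 38.1%, against 28.3% of all tested genes. Among the 9 were TET1 (0.65, interval 0.08 to 1.21), TET2 (0.50, 0.11 to 0.88), KDM6A (0.21, 0.04 to 0.39) and ALKBH5 (0.31, 0.04 to 0.57). Among the 7 were PLOD2 (-0.49, interval -0.90 to -0.09), P4HA1 (-0.31, -0.55 to -0.07), ALKBH2 (-0.44, -0.80 to -0.07) and KDM8 (-0.59, -1.06 to -0.11). Each interval is for a single gene, and none of the 16 passed once adjusted over all genes. For 35 of 42 members the interval lay within 2-fold, and the other 7 were TET1, TET3, KDM4B, KDM6B, KDM8, EGLN2 and P4HA3. Without vehicle_Nutlin replicate 3 the TET2 difference was 0.30 (adjusted p = 0.256), that of KDM4B was 0.22 against 0.61 with it, that of KDM6B was 0.00 against 0.51, and that of TET3 was 0.10 against 0.56. In the same fit TET1 was at 0.36, PLOD2 at -0.21, P4HA1 at -0.19, ALKBH2 at -0.22 and EGLN3 at -0.26. KDM6A was at 0.22, ALKBH5 at 0.32 and KDM8 at -0.65.

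**Figure D3:**
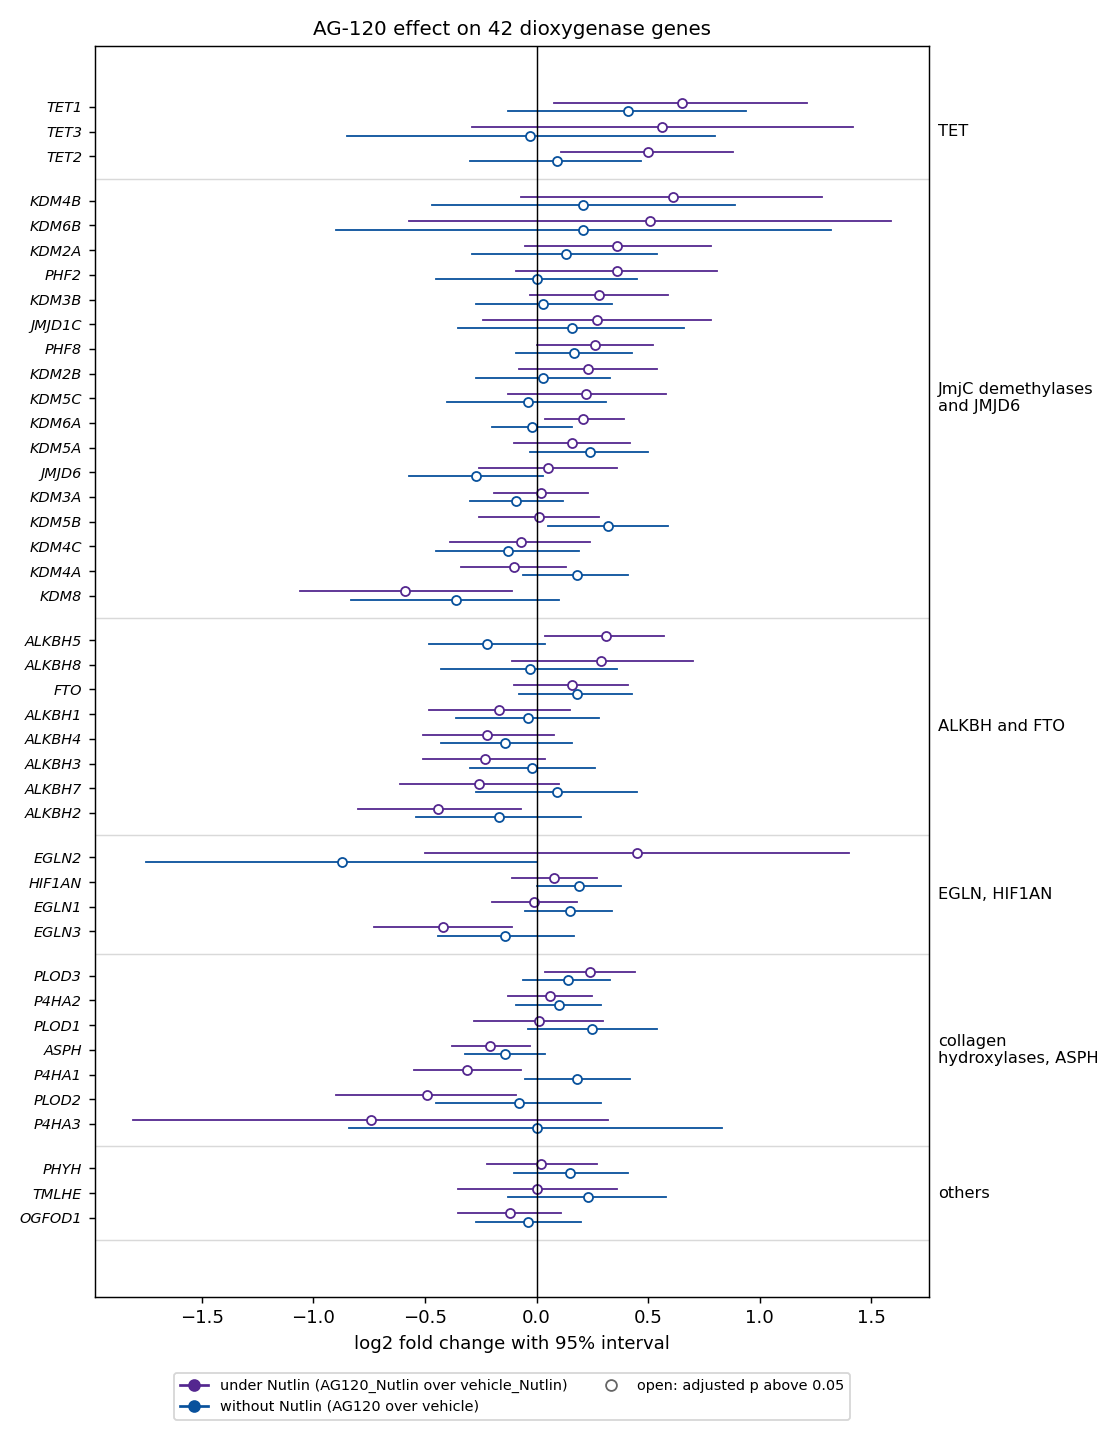
Log2 fold change of the 42 tested members with AG-120 (horizontal axis), by family, under Nutlin (AG120_Nutlin over vehicle_Nutlin, purple) and without it (AG120 over vehicle, blue). Points are fitted changes and bars 95% intervals; every point is open, since no adjusted p was at or below 0.05, and the widest bars belong to KDM6B, TET3, EGLN2 and P4HA3.

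Whether AG-120 altered the Nutlin response itself was tested as an interaction, the response in AG-120 cells minus that in vehicle cells. No member passed, where 0.363% of all tested genes did (edgeR, 0.0319% higher and 0.331% lower). DESeq2 also called 0 members, where it called 1.64% of the genes it tested. An unadjusted edgeR p under 0.05 was found for 3 of 42 members and for 1730 of all 15691 tested genes. The smallest adjusted p was 0.2695, for P4HA1, whose fall was the steeper in AG-120 cells by -0.49 log2 units (95% interval -0.83 to -0.15). ALKBH5 followed at 0.53 (0.15 to 0.90, adjusted p = 0.2819), and EGLN2 at 1.32 (0.03 to 2.62, adjusted p = 0.4442). Members called in 1 Nutlin comparison alone, such as TET2 and KDM4A, are therefore not shown to respond differently. For P4HA2 the difference was -0.05 (interval -0.31 to 0.22) and for PHYH -0.13 (-0.48 to 0.22). Of the 42 intervals 35 lay within 2-fold and 15 within 1.5-fold.

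Replicate 3 of vehicle_Nutlin departed from its group in a set of these genes. Set against the mean of the other 2 replicates, 5 of 42 members differed by more than 2-fold, all of them lower, or 11.9%, against 15% of all tested genes. They were KDM6B (-3.08 log2 units), TET3 (-2.30), KDM4B (-1.74), JMJD1C (-1.16) and PHF2 (-1.03). The highest were PLOD2 (0.70) and ALKBH7 (0.69). Members with longer exons lay lower in this library: across the 42 genes, which share the library and are not independent, Spearman's rho of the deviation with exon length was -0.58, against 0.47 and 0.53 for replicates 1 and 2 of the group, 0.42, -0.33 and -0.34 in AG120, and -0.23 to 0.21 in the AG120_Nutlin and vehicle libraries. Over the 14074 tested genes with a length, rho was -0.33 for replicate 3 of vehicle_Nutlin, 0.32 and 0.19 for replicates 1 and 2 of that group, and 0.39, -0.22 and -0.37 in AG120. Each library was set against the mean of the other 2 of its group. A library that departs therefore pushes the values of the other 2 the opposite way, and the rho values within a group are not independent. The part of exon length in these departures was not tested.

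**Figure D4:**
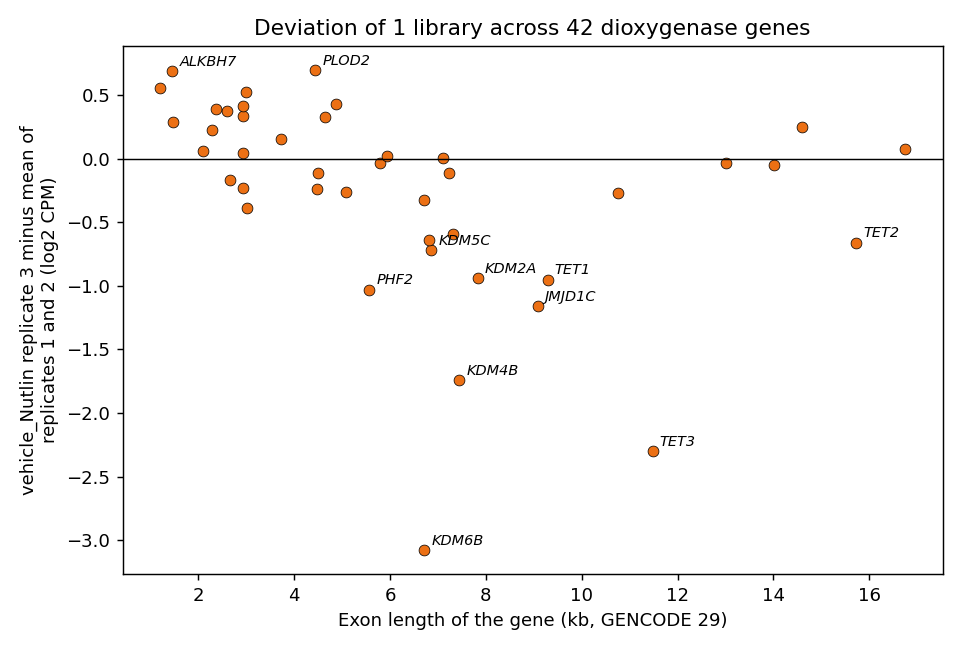
Difference in log2 CPM between replicate 3 of vehicle_Nutlin and the mean of the other 2 replicates (vertical axis) against exon length in kilobases from GENCODE 29 (horizontal axis, one point per tested member). KDM6B, TET3, KDM4B, JMJD1C and PHF2 lie more than 1 log2 unit below 0, and no member lies as far above it.

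Of 19 other human 2-oxoglutarate dioxygenases outside the list, 15 were tested, and 4 rose and 6 fell in AG-120 cells while 3 rose and 6 fell in vehicle cells. The share called was 66.7% in AG-120 cells, against 55.7% of all tested genes, and 60% in vehicle cells, against 53.9%. P4HTM, a transmembrane prolyl hydroxylase, rose by 1.81 in AG-120 cells and 1.84 in vehicle cells (edgeR adjusted p = 4.178e-09 and 4.527e-09), with 106, 116 and 105 CPM in AG120_Nutlin, 91.2, 86.6 and 103 in vehicle_Nutlin, 30.9, 31.2 and 31.2 in AG120, and 27.5, 26 and 25.1 in vehicle. KDM7A, a histone demethylase, rose by 1.57 in AG-120 cells and 1.53 in vehicle cells. HR, a JmjC protein, fell by 3.18 in AG-120 cells and by 3.34 in vehicle cells (adjusted p = 3.982e-05 and 1.684e-05). The FAD-dependent demethylase KDM1A, which uses no 2-oxoglutarate, fell by 0.64 in AG-120 cells and by 0.43 in vehicle cells (adjusted p = 3.165e-05 and 0.0008756), and its paralog KDM1B passed in neither, at 0.02 in AG-120 cells and -0.05 in vehicle cells. Of 9 genes that supply 2-oxoglutarate or remove 2-HG, 1 rose and 3 fell in AG-120 cells (44.4% called, against 55.7% of all tested genes) and 3 rose and 3 fell in vehicle cells (66.7%, against 53.9%). IDH1 fell by 0.94 in AG-120 cells and by 0.64 in vehicle cells (adjusted p = 9.774e-06 and 0.0003046). D2HGDH, which oxidises the 2-HG that mutant IDH1 makes, rose by 1.10 in AG-120 cells (adjusted p = 0.006376), with 0.46 in vehicle cells (adjusted p = 0.2028). No gene of the lists of other dioxygenases, HIF genes, collagen partners, m6A genes, FAD-dependent demethylases and 2-oxoglutarate supply was called in AG120 against vehicle. In AG120_Nutlin against vehicle_Nutlin COLGALT2 alone of those lists was called, at 2.11, 3.16 and 3.06 CPM in AG120_Nutlin and 5.08, 5.09 and 4.92 in vehicle_Nutlin (-0.85, adjusted p = 0.02122). In that comparison 1 of 6 epithelial and biliary markers and 1 of 2 tested fibroblast markers were also called, both lower in AG120_Nutlin.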

How the data were processed

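RNA from 12 RBE libraries, 4 groups of 3, was analysed. The authors deposited raw read counts per gene symbol. The submitters' processing notes name Partek, STAR, HTSeq, DESeq2 and build hg19, with no versions or roles; the counting of strand and of overlapping genes is not given in the sources used here. Positions are from the deposited table, whose stop lies 1 base past the gene's end in 13 of 13 mitochondrial genes, so 1 was subtracted. Of its symbols, 28 were dates made by a spreadsheet, none of them a member.

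Counts were fitted in R 4.3.3 with edgeR 4.0.16 (filterByExpr, TMM, 1 quasi-likelihood model over 12 libraries), and p-values were adjusted by Benjamini-Hochberg over 15691 genes, with calls at 0.05. Standard errors and 95% intervals are from the same fit. Depth was 16840161 to 27499433 counts. Alternatives were DESeq2 1.42.0, limma 3.58.1 (voom with sample weights), other scalings and filters, a replicate block, 2-group fits, an offset for exon length (GENCODE 29, lengths for 89.7% of tested genes), and leaving out libraries. Promoter sequences are RefSeq's, on GRCh38.p14, and were matched by symbol. The code was tested on simulated data. The members, the other gene lists and the libraries called apart were chosen with earlier results of these data known. In each Nutlin comparison the 8 called members with the smallest adjusted p in each direction are given library by library, and the TET genes, KDM6B, JMJD1C, EGLN3, ALKBH2 and ALKBH6 were added after their values were seen.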

Additional observations from a re-analysis of the deposited data

How the results depend on the processing

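Most results kept their direction and their side of the threshold. For Nutlin in AG-120 cells, 890 of 964 member results under an alternative did so, 33 lost a call and 41 gained one. In vehicle cells 863 of 965 did so, 62 lost a call, 39 gained one and 1 changed direction. Of the called members, 16 of 21 in AG-120 cells and 13 of 23 in vehicle cells passed in every alternative. These totals include the fit without the 3 libraries that stood apart. A fit of only the 2 groups compared called 9 members higher in vehicle cells in place of 14. Over all genes it called 3512 of 14976 higher, in place of 4206 of 15691. Such a fit gives no interaction. For Nutlin in AG-120 cells, the number of members lower ranged from 4 (without AG120_Nutlin replicate 1 or 2) to 11 (without vehicle_Nutlin replicate 3) when 1 library was left out, against 7. All genes shifted the same way. Of them, 3960 of 16108 and 3868 of 16017 were lower without AG120_Nutlin replicate 1 or 2. Without vehicle_Nutlin replicate 3, 5315 of 16046 were lower, against 4513 of 15691 with all libraries. Without the 3 libraries that stood apart (vehicle_Nutlin replicates 2 and 3 and AG120 replicate 1), only 1 vehicle_Nutlin library remained. For that fit sizes of change alone are given. In it the ALKBH5 change in vehicle cells was 0.16, against -0.03. For AG-120, limma with sample weights called 1 member higher without Nutlin (P4HA1, 0.23, adjusted p = 0.04094), where it called 5.86% of all tested genes. Under Nutlin, 1 member was higher with no filter, KDM4B (0.60, edgeR adjusted p = 0.005688), and DESeq2 called 1 lower (ASPH). The shares of all genes called in those fits were 4.3% with no filter and 6.66% with DESeq2. Without the 3 libraries the KDM4B difference under Nutlin was 0.25. The causes of these changes were not tested. Over all genes, calls for AG-120 without Nutlin numbered 8 higher and 0 lower, against 198 and 43 without vehicle_Nutlin replicate 3. Under Nutlin they numbered 68 and 303, against 203 and 480, and for the interaction 5 and 52, against 36 and 207. No pairing of samples by replicate number was seen: same-numbered libraries correlated at -0.224 to 0.116, and 1 of 12 correlated best with its own number. The labels do not say whether same-numbered libraries belong together, and these correlations cannot exclude it. With the replicate block 13 members rose and 7 fell in AG-120 cells and 12 rose and 10 fell in vehicle cells. Over all 15691 genes, 4174 rose and 4355 fell in AG-120 cells, and 4012 rose and 4199 fell in vehicle cells. Low counts limit EGLN2, P4HA3, ALKBH6 and OGFOD2 most, and each of these entries overlaps another. Whether shared reads were lost from their counts was not tested.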
